A study of Mus musculus with 12 samples.

Results

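RNA of mouse thymocytes from reaggregate thymic organ culture (RTOC), where dissociated thymic stroma and thymocytes form a new lobe together, was hybridised to 12 expression arrays. The genes described are 8 secreted or surface signals of lymphocytes: the chemokines Xcl1, Ccl3, Ccl4 and Ccl5, and the cytokines Ifng, Tnf, Lta and Ltb. Each probe set whose platform symbol names one of these genes was taken, which gave 9 of the 12422 probe sets that are not controls, Lta having 2 and the other genes 1 each (8 of 8251 genes named on the arrays). The genes were chosen by family, with the intensities and the 3 group comparisons of these same arrays already known, so every value below is a description, and the adjusted p-values only say where a probe set stood in the fit over the whole table.

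The arrays form 3 groups of 4, each numbered 1 to 4 in the titles. HY_high were thymocytes with the transgenic HY receptor, cultured for 6 days with Smcy peptide at 1e-05 M. HY_low carried the same receptor and had Smcy peptide at 1e-07 M for 6 days. OT1 were thymocytes with the transgenic OT1 receptor at day 6, with no peptide named. All groups thus hold thymocytes of an RTOC with a transgenic receptor. The HY receptor sees a Smcy peptide of male cells on a class I molecule, and the OT1 receptor an ovalbumin peptide. The titles of HY_high, HY_low and OT1 also begin with aa, ab and ot, and the labels explain none of these letters, nor do they give mouse strain, sex, age, a sort of the cells or whether replicates came from separate cultures. P-values therefore measure only the spread between these arrays.

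Chemokines are small proteins that steer leukocytes through receptors on their surface. Xcl1 has a single pair-forming cysteine near its start and acts on Xcr1, a receptor of cross-presenting dendritic cells, and in the thymus it comes from medullary epithelium and from some lymphocytes. Ccl3, Ccl4 and Ccl5 share the adjacent cysteines of the CC family, and T and natural killer (NK) cells that have seen antigen release them. Interferon gamma, tumour necrosis factor and the lymphotoxins alpha and beta (Ifng, Tnf, Lta and Ltb) are cytokines of activated lymphocytes, with lymphotoxin beta anchored to the cell surface together with lymphotoxin alpha.

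In the RefSeq annotation of mouse assembly GRCm38.p6, Ltb, Tnf and Lta follow each other on chromosome 17 with no other protein-coding gene between them, and Ccl3 and Ccl4 are neighbours on chromosome 11, where Ccl5 also lies. RefSeq promoter windows were found for 6 of the 8 genes, all but Ccl4 and Ccl5. The 250 bases before the start of Xcl1 and Ltb are shown because they belong to the one gene of the 8 with the same group order within all 4 numbers and to one whose group means lay within 1.24-fold of each other. Both lie 5′ to 3′ on the gene's strand, Xcl1 at chr1:164935523-164935772 on the minus strand and Ltb at chr17:35194257-35194506 on the plus strand, and capitals mark the matches to the motifs named after them.
Xcl1: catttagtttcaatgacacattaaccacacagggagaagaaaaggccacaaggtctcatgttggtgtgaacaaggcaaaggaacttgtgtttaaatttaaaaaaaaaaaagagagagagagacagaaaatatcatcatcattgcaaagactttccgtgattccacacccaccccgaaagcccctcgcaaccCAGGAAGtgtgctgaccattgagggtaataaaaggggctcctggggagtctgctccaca
Ltb: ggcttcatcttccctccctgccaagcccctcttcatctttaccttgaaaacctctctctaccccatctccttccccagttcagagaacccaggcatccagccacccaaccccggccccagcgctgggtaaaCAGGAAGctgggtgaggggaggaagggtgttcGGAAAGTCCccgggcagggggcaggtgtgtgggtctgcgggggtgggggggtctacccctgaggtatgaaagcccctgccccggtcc
Searched on both strands were an NF-kappaB motif (GGANTTTCC), an AP-1 motif (TGANTCA), an NFAT core (TGGAAA), a T-box motif (AGGTGTGA), an ETS core (CAGGAAG) and a TATA box (TATAAA). The Xcl1 window held the ETS core at positions -59 to -53. The Ltb window held the ETS core at -119 to -113 and the NF-kappaB motif at -87 to -79, and no matches overlapped. Of 32851 promoter windows of this length, 10.8% held the ETS core and 1.07% the NF-kappaB motif. Tnf had matches to the NFAT core and the TATA box, Ifng and Lta to the TATA box, and Ccl3 to none, where 18.6% of all windows held the NFAT core and 12.4% the TATA box. AP-1 (6.75% of windows) and T-box letters (1.12%) were found in none of the 6. A match is a run of letters and says nothing of binding.

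The deposited values are intensities on a linear scale whose lowest value is 1. Array medians lay between 3.33 and 3.97, and values at or under 8 are called dim here. Between 3% and 22.5% of an array's values were at 1. Within number 2 this share differed between groups, at 3% in HY_high, 5.18% in HY_low and 19.0% in OT1. Within numbers 1, 3 and 4 the groups lay close together. Arrays of the same number deviated together from their group means over all probe sets tested (correlations of 0.341 to 0.593 over 12 pairs of arrays). Arrays of different numbers had correlations of -0.40 to 0.163 over 36 pairs. Deviations sum to 0 within a group, so the values for different numbers are in part set by those for the same number. The tests and SEs below nevertheless leave the number out, unless the block is named. Pairing the arrays by number, through a block term, was an alternative that rests on these correlations alone. Its values are given where they change a call, and in some other places. The Gapdh controls at the 3′ and 5′ ends gave a log2 ratio (3′ over 5′) of 5.60 to 6.26 on arrays numbered 2 and 2.95 to 5.48 on the others. Group means of this ratio were 4.55 in HY_high, 4.80 in HY_low and 4.62 in OT1. The actin controls did not set number 2 apart in this way. Their log2 ratio was 2.02 to 2.99 on arrays numbered 2 and 2.15 to 3.60 on the others. Of the 10 T cell markers 9 were measured, and 8 had a geometric mean above 8 over the arrays, with Cd3d, Cd3e and Cd3g at 41.5 or above in each group and Cd4 dim (4.68 to 6.18). The B cell marker Ighm was bright as well, at 200 in HY_high, 216 in HY_low and 244 in OT1. Of the 7 B cell markers measured 2 had a geometric mean above 8 over the arrays, Ighm and Cd79b. Cd79b had 22.3 in HY_high, 12.9 in HY_low and 11.4 in OT1. Blk had 14.6, 4.17 and 5.09 in these groups, with 152.58 on its highest HY_high array. The other B cell markers measured were dim in their group means. Group means were 2.03 to 3.27 for Cd79a and 1.06 to 1.41 for Cd22. The limma fit without the block covered 8695 probe sets, 8 of them those of Xcl1, Ccl3, Ccl4, Ccl5, Tnf, Lta (both) and Ltb. The Ifng probe set was too dim to be tested.

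**Figure D1:**
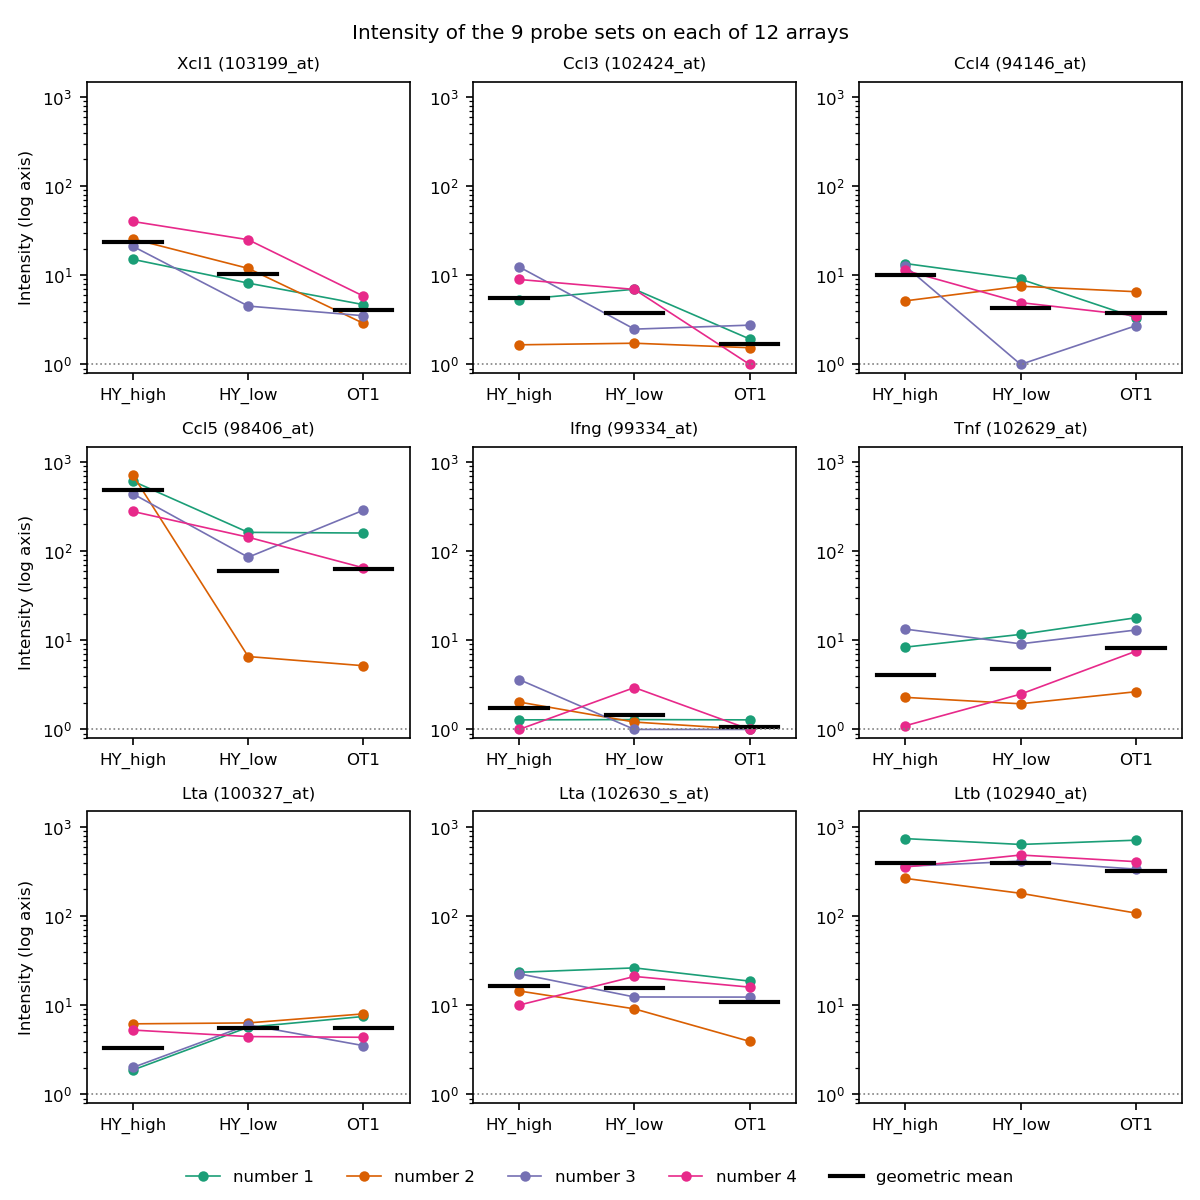
Intensity (log axis) of each of the 9 probe sets on the 12 arrays, with HY_high, HY_low and OT1 from left to right. Points are arrays, coloured lines join arrays of the same title number, black bars are geometric means of 4 arrays and the dotted line is the lowest value, 1. Xcl1 steps down along each of the 4 lines, and Ccl5 in HY_high lies at 279.8 or above on every array.

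In the fit without the block none of the 8 probe sets passed an adjusted p of 0.05 in any comparison. Over all probe sets, 0.023% passed in HY_high against HY_low, 0.023% in HY_low against OT1 and 0.173% in HY_high against OT1. An unadjusted p under 0.05 was found in HY_high against HY_low for 2 of the 8 (Xcl1 and Ccl5), where 2.96% of all probe sets had one. In HY_low against OT1 it was 1 of the 8 (Xcl1), against 2.65% of all. In HY_high against OT1 it was 4 of the 8, Xcl1, Ccl3, Ccl4 and Ccl5, against 4.08% of all. With the number as a block 1 of the 8, Xcl1, passed upwards in HY_high against OT1, where 1.13% of all probe sets did. With the block, 0 of the 8 passed in HY_high against HY_low, where 0.23% of all probe sets passed upwards, and 0 in HY_low against OT1, where 0.0805% did. The median log2 difference of the 8 was 0.32, 0.23 and 1.0 in HY_high against HY_low, HY_low against OT1 and HY_high against OT1, beside 0.01, 0.01 and 0.02 over all probe sets tested. Each of the 4 chemokines was higher in HY_high than in OT1 by over 1 in log2, as 4.42% of all probe sets were. No cytokine probe set was higher by that much, and Tnf was lower, at -1.01. HY_high arrays enter 2 of these comparisons, as do the OT1 and HY_low arrays, so the comparisons are not independent of each other.

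Xcl1 had intensities of 15.12, 25.62, 21.16 and 40.25 on HY_high arrays 1 to 4, 8.18, 11.98, 4.52 and 25.11 on HY_low arrays, and 4.69, 2.89, 3.52 and 5.84 on OT1 arrays. Every HY_high array lay above every OT1 array, while HY_low overlapped HY_high through its array 4 and OT1 through its array 3. Geometric means were 24.0 in HY_high, 10.3 in HY_low and 4.09 in OT1, with log2 SDs of 0.59, 1.04 and 0.45 (n = 4 each). Xcl1 was dim on all OT1 arrays and above 8 on all HY_high arrays.

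The log2 difference of Xcl1 in HY_high against OT1 was 2.55 ± 0.52 (SE), 5.87-fold, with a limma adjusted p of 0.0657, or 0.00159 with the number as a block. The ratio was 3.22, 8.87, 6.01 and 6.89 within numbers 1 to 4. With the block the Xcl1 call was kept when any 1 number was left out, at adjusted p from 0.00358 to 0.0268. With intensities under 8 set to 8, which puts all OT1 arrays at the floor, the difference was 1.58 and the block adjusted p 0.0629, so the call rests in part on how far below 8 the OT1 arrays lay. A floor at 16 left a difference of 0.60 (limma adjusted p = 1 without the block). The groups did not overlap, HY_high being higher, for 1.52% of all probe sets, and in 10.4% HY_high was higher within 4 of 4 numbers. In bulk RNA, more cells with Xcl1 RNA and more Xcl1 RNA per cell cannot be told apart.

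Neither step of Xcl1 on either side of HY_low passed. In HY_high against HY_low the log2 difference was 1.22 ± 0.52 (SE; limma adjusted p = 1, or 0.204 with the block), with ratios of 1.85, 2.14, 4.68 and 1.60 within the numbers. In HY_low against OT1 it was 1.33 ± 0.52 (adjusted p = 1, or 0.238 with the block), with ratios of 1.74, 4.15, 1.28 and 4.30. The sizes of both steps rested on single HY_low arrays, since without HY_low array 3 they were 0.83 and 1.72, and without HY_low array 4 they were 1.65 and 0.90. With a floor at 8 they were 1.02 and 0.57. Neighbouring groups in this order thus did not pass, and HY_high against OT1 did with the block. HY_high exceeded HY_low and HY_low exceeded OT1 within 4 of 4 numbers, an order that 0.518% of all probe sets held. Of the 8 probe sets tested, this order was held within 4 of 4 numbers by Xcl1, within 3 by Ccl5, within 2 by Ccl4 and the s_at probe set of Lta, and within 1 or 0 by the others.

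Ccl5 had intensities of 612.02, 712.73, 441.11 and 279.8 on HY_high arrays 1 to 4, 163, 6.58, 85.73 and 143.83 on HY_low arrays, and 160.2, 5.19, 288.99 and 65.13 on OT1 arrays. The HY_high arrays lay within 2.55-fold of each other, while HY_low spanned 24.8-fold and OT1 55.7-fold, each through its dim array 2. HY_high and HY_low did not overlap, which held for 1.24% of all probe sets with HY_high higher. OT1 array 3 lay above the lowest HY_high array. Geometric means were 482 in HY_high, 60.3 in HY_low and 62.9 in OT1, with log2 SDs of 0.60, 2.17 and 2.56 (n = 4 each).

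The log2 difference of Ccl5 was 3.0 ± 1.06 (SE) in HY_high against HY_low (limma adjusted p = 1, or 0.102 with the block) and 2.94 ± 1.06 in HY_high against OT1 (adjusted p = 0.805, or 0.0558 with the block). Much of this size came from the arrays numbered 2, where HY_high exceeded HY_low 108-fold and OT1 137-fold. On arrays 1, 3 and 4 the ratios were 3.75, 5.15 and 1.95 against HY_low and 3.82, 1.53 and 4.30 against OT1. Without the arrays numbered 2 the log2 difference of Ccl5 was 1.74 against HY_low and 1.55 against OT1. Leaving out HY_low array 2 alone gave 1.93 against HY_low, and leaving out OT1 array 2 alone gave 1.74 against OT1. Ccl5 was higher in HY_high within 4 of 4 numbers against each other group, as was Xcl1, where 9.81% of all probe sets were against HY_low. HY_low against OT1 gave -0.06 ± 1.06 for Ccl5 (adjusted p = 1), and its sign turned when OT1 array 1, OT1 array 3 or HY_low array 2 was left out.

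Ccl3 had intensities of 5.35, 1.66, 12.44 and 8.99 on HY_high arrays 1 to 4, 6.98, 1.73, 2.49 and 6.95 on HY_low arrays, and 1.93, 1.54, 2.76 and 1 on OT1 arrays. It was above 8 on 2 of 12 arrays, both HY_high, and all 3 groups overlapped. Its log2 difference in HY_high against OT1 was 1.73 ± 0.64 (SE; limma adjusted p = 0.85, or 0.158 with the block), and HY_high was higher within 4 of 4 numbers, by 1.08-fold only in number 2. The differences were 0.56 ± 0.64 in HY_high against HY_low and 1.17 ± 0.64 in HY_low against OT1 (adjusted p = 1 for both). With intensities under 8 set to 8 the difference in HY_high against OT1 was 0.20.

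Ccl4, the neighbour of Ccl3 and likewise an attractant of leukocytes, had intensities of 13.57, 5.17, 12.66 and 11.35 on HY_high arrays 1 to 4, 9.06, 7.55, 1 and 4.94 on HY_low arrays, and 3.35, 6.55, 2.72 and 3.52 on OT1 arrays. Array 2 of HY_high was the only one of that group under 11, and it made HY_high overlap both other groups. The log2 difference of Ccl4 was 1.40 ± 0.62 (SE) in HY_high against OT1 and 1.22 ± 0.62 in HY_high against HY_low (limma adjusted p = 1 for both, or 0.299 and 0.424 with the block). HY_high was higher within 3 of 4 numbers in each, with ratios of 4.05, 0.789, 4.65 and 3.22 against OT1. Without the arrays numbered 2 these differences were 1.98 and 1.82, still not past the threshold, and without HY_low array 3 the difference against HY_low was 0.52. Ccl4 was above 8 on 4 of 12 arrays. With intensities under 8 set to 8 the differences of HY_high were 0.48 against OT1 and 0.44 against HY_low. HY_low against OT1 gave 0.17 ± 0.62 (adjusted p = 1), and HY_low array 3, at the lowest value, lay under all OT1 arrays.

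**Figure D2:**
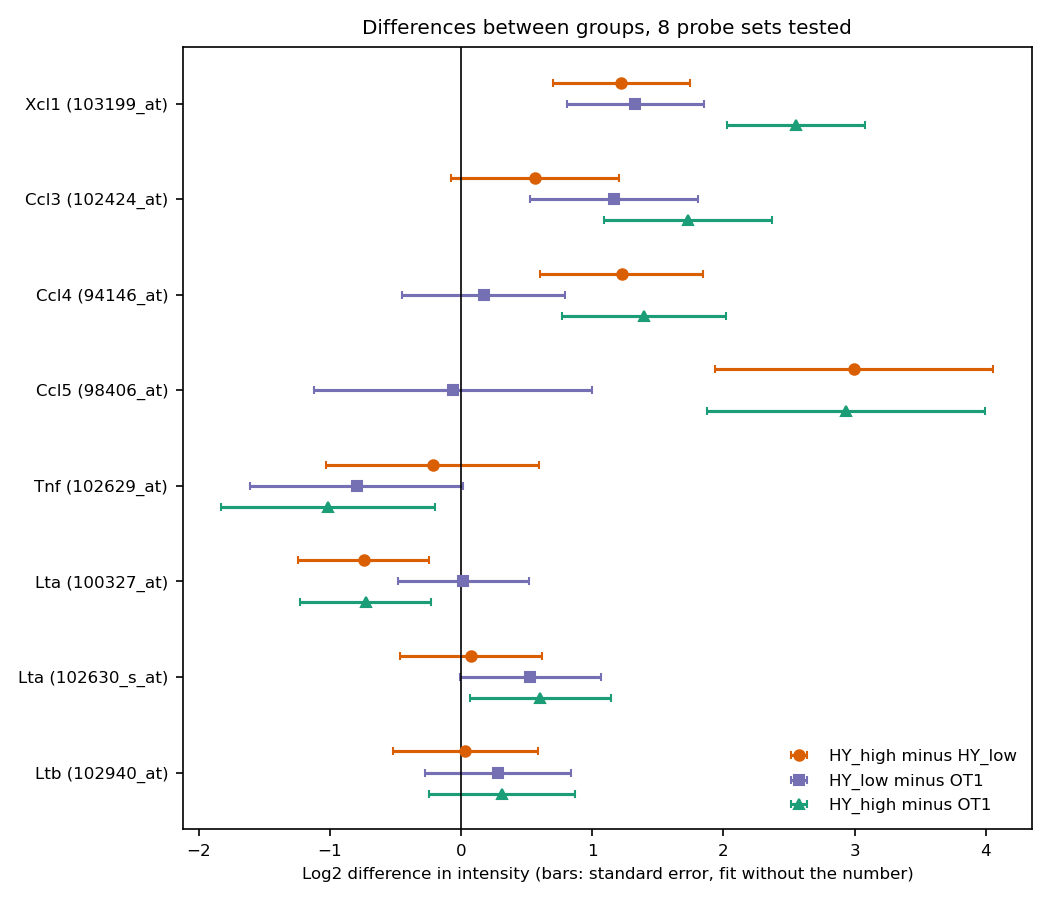
Log2 difference in intensity (horizontal axis) of the 8 probe sets tested, for HY_high minus HY_low, HY_low minus OT1 and HY_high minus OT1. Points are differences of group means over 4 arrays each and bars are standard errors of the fit without the block. The 4 chemokines have values of 1.40 to 2.94 in HY_high minus OT1, while Tnf, Lta and Ltb have values from -1.01 to 0.60.

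Ifng, the cytokine that activates macrophages and induces class I and II molecules, was near the bottom of the scale throughout. Its intensities were 1.28, 2.03, 3.63 and 1 on HY_high arrays 1 to 4, 1.29, 1.21, 1 and 2.95 on HY_low arrays, and 1.28, 1, 1 and 1 on OT1 arrays. It lay above 8 on 0 of 12 arrays and at the lowest value on 5, so these values give no measured difference between groups.

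Tnf, an inflammatory cytokine that signals through Tnfrsf1a and Tnfrsf1b, had intensities of 8.39, 2.29, 13.36 and 1.1 on HY_high arrays 1 to 4, 11.66, 1.94, 9.14 and 2.49 on HY_low arrays, and 17.93, 2.65, 13.06 and 7.55 on OT1 arrays. The groups overlapped, and the arrays fell out by number, since arrays 1 and 3 were above 8 and arrays 2 and 4 under 8 in every group. The log2 difference was -1.01 ± 0.81 (SE) in HY_high against OT1, -0.80 ± 0.81 in HY_low against OT1 and -0.22 ± 0.81 in HY_high against HY_low (limma adjusted p = 1 for all 3, or 0.372, 0.673 and 0.897 with the block). Tnf was lower in HY_low than in OT1 within 4 of 4 numbers, at ratios of 0.65, 0.732, 0.70 and 0.33, where 7.38% of all probe sets were lower in this way. It was the one probe set of the 8 below 0 in all 3 comparisons.

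Lta was read in different ways by its 2 probe sets. On the s_at probe set, a type that can also bind related transcripts, intensities were 23.51, 14.5, 22.63 and 10.07 on HY_high arrays 1 to 4, 26.33, 9.13, 12.41 and 21.11 on HY_low arrays, and 18.7, 3.94, 12.38 and 16.01 on OT1 arrays. The groups overlapped, and the log2 difference was 0.60 ± 0.54 (SE) in HY_high against OT1, 0.53 ± 0.54 in HY_low against OT1 and 0.08 ± 0.54 in HY_high against HY_low (limma adjusted p = 1 for all 3). HY_low exceeded OT1 within 4 of 4 numbers on this probe set, as it did for Xcl1, where 9.73% of all probe sets held this. No probe set of the 8 had HY_low above OT1 without overlap, where 0.886% of all did.

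On the other Lta probe set intensities were 1.88, 6.2, 2.01 and 5.28 on HY_high arrays 1 to 4, 5.68, 6.35, 6.03 and 4.46 on HY_low arrays, and 7.5, 8.02, 3.53 and 4.38 on OT1 arrays. It was above 8 on 1 of 12 arrays, OT1 array 2. Its log2 difference was -0.73 ± 0.50 (SE) in HY_high against OT1 and -0.74 ± 0.50 in HY_high against HY_low (limma adjusted p = 1 for both). The correlation between both Lta probe sets was -0.54 over the 12 arrays, so the table gives no single direction for Lta.

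Ltb, whose product holds lymphotoxin alpha at the cell surface, had intensities of 744.23, 266.06, 363.81 and 357.23 on HY_high arrays 1 to 4, 639.95, 181.08, 415.31 and 486.79 on HY_low arrays, and 714.62, 108.55, 338.38 and 410.34 on OT1 arrays. Array 1 was the highest and array 2 the lowest in each group, and the groups overlapped widely. Geometric means were 401 in HY_high, 391 in HY_low and 322 in OT1, with log2 SDs of 0.63, 0.78 and 1.14 (n = 4 each). The log2 difference was 0.31 ± 0.56 (SE) in HY_high against OT1, 0.28 ± 0.56 in HY_low against OT1 and 0.03 ± 0.56 in HY_high against HY_low (limma adjusted p = 1 for all 3). With the block the SE of Ltb was 0.23, and still none passed (adjusted p = 0.646, 0.765 and 0.975). The small positive differences against OT1 turned below 0 without OT1 array 2, to -0.21 in HY_high and -0.24 in HY_low.

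Several of the probe sets also varied with the title number. Averaged over the 3 groups, arrays numbered 2 deviated from their group means by -1.09 in log2 for Ltb, -1.26 for Tnf, -0.83 for the s_at probe set of Lta, -1.01 for Ccl3 and -2.08 for Ccl5. The other Lta probe set went the other way on these arrays, at 0.54, and Ifng was at -0.05. HY_high array 2 was the exception for Ccl5, at 0.57 above its group mean, where HY_low and OT1 arrays numbered 2 were at -3.20 and -3.60. Xcl1 was instead highest in number 4, with an average of 0.85, and arrays numbered 4 were the highest of their groups in all 3. After removal of the group means, the correlation over the 12 arrays was 0.89 between Ltb and the s_at probe set of Lta, 0.80 between Ltb and Ccl5, and 0.67 between Ltb and Tnf. Xcl1 had -0.50 with Tnf, 0.37 with Ifng, 0.06 with Ccl5 and 0.04 with Ltb. These correlations describe 12 arrays that share numbers. The Gapdh ratio of these arrays was highest in number 2, while the actin ratio was not. The part of either ratio in the correlations was not tested.

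**Figure D3:**
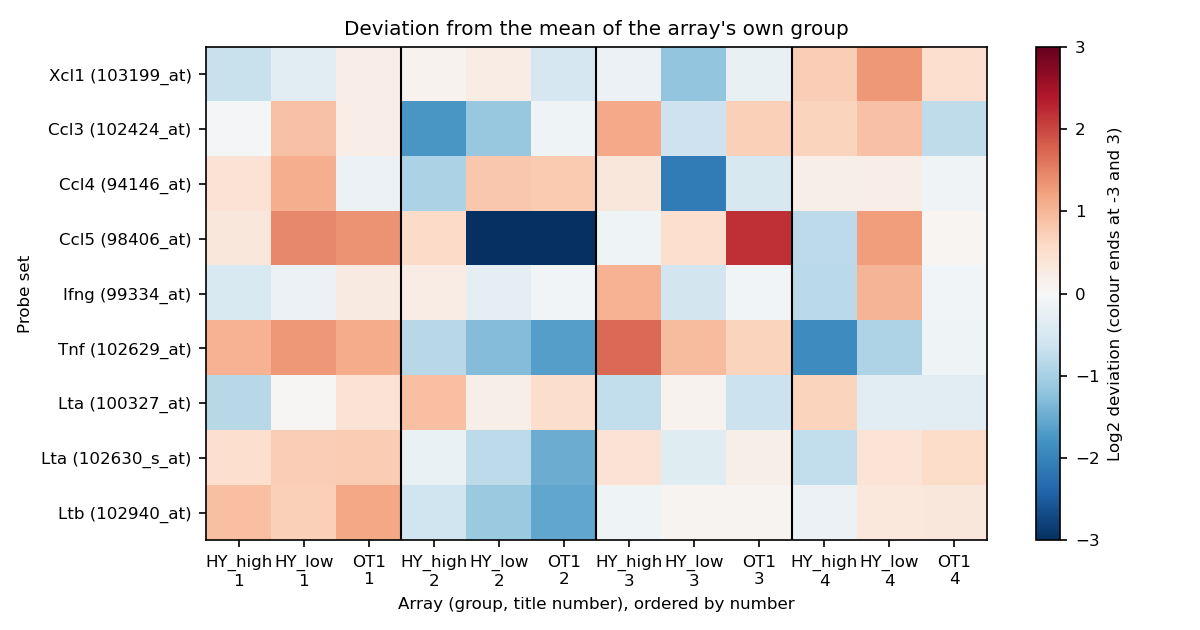
Deviation in log2 (colour) of the 9 probe sets from the mean of the array's own group, with the 12 arrays ordered by title number. Ltb, Tnf and the s_at probe set of Lta are below their group means on all 3 arrays numbered 2, and Ccl5 is so on HY_low and OT1 arrays numbered 2 but not on HY_high array 2.

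The patterns most like each brighter gene over the 12 arrays were looked up among the tested probe sets with 1 symbol, as a description. For Xcl1 the highest Pearson correlations of log2 values were with Trbv13-2, a T cell receptor beta variable segment (0.87), Pts, an enzyme of tetrahydrobiopterin synthesis (0.87), and AW112010 (0.85). Trbv13-2 had geometric means of 31.1 in HY_high, 19.6 in HY_low and 2.34 in OT1. HY_high and HY_low carried another transgenic receptor than OT1, and the part of the transgenes in the level of this receptor segment was not tested. AW112010 had 84.6, 41.6 and 32.6 in the same groups. For Ccl5 the highest were Phyh, a peroxisomal enzyme of phytanic acid breakdown (0.90), Klhl24 (0.90) and Tcirg1, a proton pump subunit (0.89). For the s_at probe set of Lta they were Gm2a, the GM2 ganglioside activator (0.93), Cmtr1, an mRNA cap methyltransferase (0.92), and Inpp5d, the lipid phosphatase SHIP (0.90). For Ltb they were Cmip (0.98), Ift27 (0.97) and Man2b1, a lysosomal mannosidase (0.96). All 12 arrays are shared between these values, and number and group both enter them.

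Receptors through which these signals act were mostly dim, with 8 of 10 measured, 3 of them above 8 on average and 5 tested. In the fit without the block 0 of the 5 passed in any comparison. With the block 1 of the 5 rose in HY_high against OT1, where 1.13% of all probe sets did. That gene was Tnfrsf1b, the second receptor for tumour necrosis factor, with a geometric mean of 34.0 in HY_high (18.65 to 80.85 over the arrays), 22.1 in HY_low (15.07 to 28.99) and 13.2 in OT1 (5.27 to 21.24). Its log2 difference in HY_high against OT1 was 1.36 ± 0.53 (SE; limma adjusted p = 0.942, or 0.0265 with the block). Ifngr1, a chain of the interferon gamma receptor, had 22.6 in HY_high, 12.7 in HY_low and 14.8 in OT1. Tnfrsf1a had 9.37, 13.1 and 9.59 in the same groups, and neither passed. The median of the 5 was 0.61 in HY_high against OT1 and 0.19 in HY_high against HY_low.

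Of the interferon gamma signalling and target genes 9 of 11 were measured and 7 tested, and 0 passed with or without the block. All 7 were positive in HY_high against OT1, where 51.4% of all probe sets were, with a median of 0.47 beside 0.02 over all. Irf1, a transcription factor that interferon gamma induces, had 91.7 in HY_high, 68.8 in HY_low and 66.3 in OT1. The receptor kinases Jak1 and Jak2 had 167, 141 and 132, and 18.5, 14.3 and 9.0, in the same groups.

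Other chemokines were nearly all dim, since 21 of 31 were measured, 9 tested and 1 above 8 on average, Ccl22. It had 8.38 in HY_high, 8.61 in HY_low and 11.1 in OT1. Ccl1 had 6.75, 4.40 and 4.30 and Ccl6 5.91, 7.61 and 3.74 in the same groups. None of the 9 passed in any comparison with or without the block, and their medians were 0.07 in HY_high against HY_low and 0.43 in HY_high against OT1. Of other lymphocyte cytokines and TNF family ligands 22 of 29 were measured and 14 tested. With the block 1 of the 14 rose in HY_high against OT1, where 1.13% of all probe sets did. It was Tnfsf11, the ligand RANKL that acts on thymic medullary epithelium and osteoclasts, with 14.6 in HY_high (9.04 to 24.23), 7.0 in HY_low (4.90 to 10.16) and 4.03 in OT1 (2.21 to 7.49). Its log2 difference was 1.85 ± 0.49 (SE; limma adjusted p = 0.304, or 0.0342 with the block). Like Xcl1, it had non-overlapping HY_high and OT1 arrays with HY_low between. Il16 had 20.4, 18.0 and 17.8 and Csf1 4.53, 5.99 and 4.97 in HY_high, HY_low and OT1.

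Of 20 factors and kinases known to act upstream of these genes 17 were measured and 15 tested, and 0 passed with or without the block. Nfatc1, a calcium-dependent factor of T cell activation, had 20.1 in HY_high, 9.78 in HY_low and 12.9 in OT1 (log2 difference in HY_high against HY_low 1.04 ± 0.48, limma adjusted p = 1, or 0.307 with the block). Stat4, which relays interleukin-12 signals to Ifng, had 26.6, 20.3 and 15.1, and Rela, an NF-kappaB subunit, 37.0, 38.1 and 31.9 in the same groups. The medians of this list were 0.55 in HY_high against HY_low and 0.52 in HY_high against OT1.

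Chemokines and cytokines of this kind are also made by cells other than thymocytes, so marker lists were summed over their measured genes on each array. Macrophage and dendritic cell markers, 16 of 16 measured, summed to 160 to 584 in HY_high, 149 to 618 in HY_low and 126 to 336 in OT1. Ctss was the single one above 8 on average, at 296 in HY_high, 234 in HY_low and 148 in OT1. With the block 1 of the 13 tested, Ctss, rose in HY_high against OT1 (limma adjusted p = 0.0275), where 1.13% of all probe sets did. Without the block Ctss did not pass (limma adjusted p = 0.9999). Adgre1 was at the lowest value on 2, 1 and 2 arrays of HY_high, HY_low and OT1. These markers did not move as one. Of the 13 tested 8 were higher in HY_high than in OT1, where 51.4% of all probe sets were. Apoe (geometric means of 1.40, 5.61 and 1.27) and Lyz2 (1.97, 4.57 and 1.16) were highest in HY_low, and Cd74 (6.33, 3.16 and 6.58) was lowest there. These means are all dim, and none of these genes passed with or without the block. The HY_low arrays spanned 1.63 to 18.52 for Apoe and 1.83 to 13.21 for Lyz2. NK cell markers, 2 of 6 measured, summed to 2 to 5.66, 3.09 to 3.54 and 3.55 to 7.54 in the same groups, with Ncr1 at the lowest value on 2, 1 and 2 arrays. B cell markers, 7 of 8 measured, summed to 160 to 534 in HY_high, 82.8 to 636 in HY_low and 92.2 to 1012 in OT1. Most of these sums was Ighm, which alone lay at 126 to 461, 59.4 to 593 and 69.7 to 987 in these groups. Of the B cell markers 6 were tested, and 0 passed in any comparison with or without the block. Sums for granulocytes (7 of 7 measured), mast cells (5 of 6), red cells (2 of 5) and thymic epithelium and stroma (10 of 11) reached at most 87.3 on any array, and their groups overlapped. T cell markers, 9 of 10 measured, summed to 738 to 1349 in HY_high, below the 1448 to 2411 of HY_low and the 1359 to 1947 of OT1. The list did not move as one. Of its 9 genes 3 were higher in HY_high than in OT1, where 51.4% of all probe sets were. Cd3d had a geometric mean of 98.3 in HY_high, 101 in HY_low and 87.3 in OT1, Cd3e had 48.0, 57.2 and 41.5, and Cd3g had 231, 273 and 184. Thy1 had 234 in HY_high, 555 in HY_low and 541 in OT1, Cd8a had 157, 339 and 340, and Cd2 had 95.5, 203 and 197. Thy1 was lower in HY_high against both other groups with the block (limma adjusted p = 0.0126 against HY_low and 0.00564 against OT1), and Cd2 against OT1 (0.0402). These were 1 of the 9 against HY_low and 2 of the 9 against OT1. With the block 0.345% and 1.36% of all probe sets passed there, in either direction. Without the block neither gene passed (limma adjusted p = 0.9997 and 0.788 for Thy1, and 0.9999 for Cd2 against OT1). The summed level of this list, led by Thy1 and Cd8a, thus set HY_high apart in the comparisons with the highest Xcl1 and Ccl5 values, and its part in those values was not tested.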

How the data were processed

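The authors deposited 1 table of probe set intensities on a linear scale for the 12 arrays. Background correction, summary, scaling and genome build are not given in the sources used here. All 12 columns matched a sample, so 0 columns of per-sample values were left out. Intensities were put on a log2 scale with no floor or further scaling, and 66 control probe sets were dropped. Symbols came from the platform annotation, updated by gene ID (10833 probe sets with 1 symbol, 396 with several, 1193 with none). Probe sets with a mean log2 above the 30th percentile (an intensity of 1.76) were tested, which left 8695. Group means over all 12 arrays were fitted at once in limma 3.58.1 under R 4.3.3 (9 residual degrees of freedom), with an intensity trend in the empirical Bayes step and two-sided tests adjusted by Benjamini-Hochberg over all probe sets tested, at a threshold of 0.05. The title number as a block (6 degrees of freedom) was the paired alternative, since every pair of same-numbered arrays deviated together (correlations of at least 0.341), a pairing that comes from the data. The fit without the block was tested on simulated data whose arrays were drawn independently. The fit with the block was not tested in this way. Depth has no meaning for arrays, and their number limits the precision.

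The genes, lists and tests were chosen with earlier results of these data known. Named are all probe sets of the 8 genes. From each pathway list, every gene past the threshold with or without the block and the 3 brightest were named. For genes whose brightest probe set had a geometric mean of at least 8, the 3 probe sets most alike were named. The marker genes named were picked after their values were seen. Lists used the brightest probe set of each gene.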

Additional observations from a re-analysis of the deposited data

Results flagged for a closer look

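In OT1, array 1 stood apart from the other 3 for Ifng, at an intensity of 1.28, because the other 3 were all at the lowest value, 1. All of these values are dim, and no difference is read from them. Of the 27 groups of 4 values examined in this way (Dixon's test at the 95% critical value) it was the single one past the limit, and chance alone gives about 1 in 20.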

How the results depend on the processing

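Leaving out arrays of 1 number was added after the data were seen. In HY_high against HY_low and in HY_low against OT1, 0 of the genes' probe sets passed under any of 29 alternatives each. In HY_high against OT1 the count was 0 as reported and 0 to 1 when 1 array was left out, Xcl1 passing without HY_low array 4 (adjusted p = 0.0432). It was 1, Xcl1, with array weights (0.0101), with the replicate block as a fixed (0.00159) or random term (0.00109), and with the block and the arrays numbered 1, 2 or 4 left out. It was 2 with the block and without the arrays numbered 3, Ccl5 passing as well (adjusted p = 0.026). Of 684 single-gene values under alternatives, 628 kept their direction and side of the threshold, 5 became 0 because a floor made the groups equal in mean, 9 newly passed and 42 turned in sign. Probe sets that a floor put out of the test had no value there.

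Over all probe sets, the count in HY_high against HY_low was 2. It was 4 with a floor at 8 or 16, 0 with no filter, 1 with the 50th percentile filter, 1 with scaling to one median, 7 with array weights, and 1 to 4 when an array was left out. It was 30 with the replicate block, 23 with it as a random term, 6 with it and a floor at 8, and 30, 12, 4 and 7 with it and numbers 1, 2, 3 and 4 left out in turn. Without the arrays numbered 2 and without the block it was 1. In HY_low against OT1 the count was 2. It was 1 with a floor at 16, 4 with array weights, 8 with the replicate block, 6 with it as a random term, and 11, 8, 6 and 10 with the block and each number left out. In HY_high against OT1 it was 15. It was 8 with a floor at 8 or 16, 9 with no filter, 64 with array weights, 4 without the arrays numbered 2 and 6 to 17 when an array was left out. It was 118 with the replicate block, 92 with it as a random term, 26 with it and a floor at 8, and 135, 63, 43 and 52 with it and each number left out. The cause of these shifts was not tested.

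Sign changes concerned values that did not pass. In HY_high against HY_low, Tnf gave 0.018 with a floor at 8, with or without the block, 0.10 with the block and no arrays numbered 4, and -0.78 to 0.42 with 1 array left out. The s_at probe set of Lta gave -0.016 with a floor at 16, -0.12 without the arrays numbered 2 with or without the block, -0.19 with the block and no arrays numbered 3, and -0.19 to 0.32 with 1 array left out. Ltb gave -0.015 with scaling to one median, -0.17 with array weights, -0.14 without the arrays numbered 2 with or without the block, -0.027 with the block and no arrays numbered 1, and -0.34 to 0.27 with 1 array left out. Ccl3 gave -0.024 with the block and no arrays numbered 3. In HY_low against OT1, the other Lta probe set gave -0.00090 with a floor at 8, with or without the block, -0.24 with the block and no arrays numbered 3, and -0.20 to 0.19 with 1 array left out. Ccl4 gave -0.18 with array weights, -0.25 with the block and no arrays numbered 1, and -0.19 to 0.87 with 1 array left out. Ccl5 gave 0.50 with the block and no arrays numbered 3, and -1.26 to 1.0 with 1 array left out. Ltb gave -0.24 to 0.66 with 1 array left out in HY_low against OT1, and in HY_high against OT1 it gave -0.012 without the arrays numbered 2, with or without the block, and -0.21 to 0.70 with 1 array left out.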
